A study of Mus musculus with 2 samples.

Results

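Clcn5, an X-linked gene, carries 5 microRNA genes in its introns: Mir532, Mir188, Mir362, Mir501 and Mir500. These 5 of the 1973 microRNA gene rows were taken by name and by their place in the host, without use of their measured levels, and no other row of the tables lies in Clcn5. Small RNA of 2 limb pools of the mouse strain B6NCrl, male and female embryos mixed, was sequenced at 12.5 days of development. Replicate 1 held limbs of 88 embryos and replicate 2 limbs of 68, and the labels give 1 group, with no treatment, allele or contrast. Each value is therefore a level in limb as a whole, in which fewer cells of a type and less RNA per cell cannot be told apart.

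Clcn5 encodes a chloride and proton exchanger of endosomes, known for its part in protein uptake in the kidney tubule, where loss of the human gene causes Dent disease. A microRNA hairpin in an intron is cut out of the host's transcript by Drosha, trimmed by Dicer, and 1 of its arms is loaded into an Argonaute protein. The seed, bases 2 to 8 of the loaded arm, pairs with target messenger RNAs. Neighbours in 1 transcript start from the same precursor, so their mature levels also depend on processing and decay after transcription.

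The mature arms are listed by their place in the intron, with the seed in capitals because the seeds decide which genes could share targets. Sequences are those of RefSeq on GRCm38.p6, written 5′ to 3′. All 5 genes were matched, with 9 mature arms, 1 of Mir532 and 2 of each other gene. miR-532-5p is not analysed here. The upstream genes are Mir532 and Mir188.
mmu-miR-532-3p: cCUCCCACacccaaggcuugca
mmu-miR-188-3p: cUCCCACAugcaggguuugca
mmu-miR-188-5p: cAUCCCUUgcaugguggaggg
Both 3p arms hold the run CUCCCACA, which starts at the first base of miR-188-3p and at the second base of miR-532-3p. Their seeds are thus the same letters shifted by 1 base and are not identical.

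The downstream genes Mir362, Mir501 and Mir500 have arms that resemble each other along their whole length.
mmu-miR-362-5p: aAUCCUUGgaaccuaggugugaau
mmu-miR-501-5p: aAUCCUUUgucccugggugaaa
mmu-miR-500-5p: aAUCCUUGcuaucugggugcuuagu
mmu-miR-362-3p: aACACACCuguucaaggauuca
mmu-miR-501-3p: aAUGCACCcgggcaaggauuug
mmu-miR-500-3p: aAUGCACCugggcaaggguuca
On the 5p side miR-362-5p and miR-500-5p share 1 seed, and miR-501-5p differs from miR-500-5p in it by U8G, with positions counted from 1 at the 5′ end of the arm named first. On the 3p side miR-501-3p and miR-500-3p share 1 seed and were identical at 18 of 22 positions, the others being C9U, A18G, U21C and G22A. The seed of miR-362-3p differs from that of miR-500-3p by C3U and A4G, and the arms were identical at 17 of 22 positions. Likeness of seeds also crossed between the upstream and downstream genes. The seed of miR-188-5p differs from that of miR-501-5p by C6U alone, while these arms were identical at 10 of 21 positions. The 9 arms printed here carried 7 seeds, of which 2 were shared among them, and miR-532-5p is outside this tally.

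Whole hairpins were more alike within the upstream genes and within the downstream genes than between them. The hairpins of the downstream genes are given with both mature arms in capitals, since their likeness bears on whether reads could be assigned to 1 gene.
Mir362: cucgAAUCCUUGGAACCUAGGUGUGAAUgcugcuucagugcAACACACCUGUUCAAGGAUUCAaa
Mir501: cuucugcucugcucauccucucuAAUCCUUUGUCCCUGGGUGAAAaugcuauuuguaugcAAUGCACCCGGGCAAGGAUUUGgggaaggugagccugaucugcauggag
Mir500: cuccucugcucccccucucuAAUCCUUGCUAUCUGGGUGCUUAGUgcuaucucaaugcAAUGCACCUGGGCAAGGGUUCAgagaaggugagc
In a global alignment the hairpins of Mir501 and Mir500 were identical at 73 of 92 positions (79.3%), those of Mir362 and Mir500 at 72.7%, those of Mir362 and Mir501 at 67.6% and those of Mir532 and Mir188 at 69.6%. The 6 pairs of 1 upstream and 1 downstream gene lay between 54.4% and 61.5%. The hairpins ranged from 65 to 109 bases as annotated, and their predicted folds from -28.5 kcal/mol for Mir362 to -46.9 kcal/mol for Mir501.

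**Figure D1:**
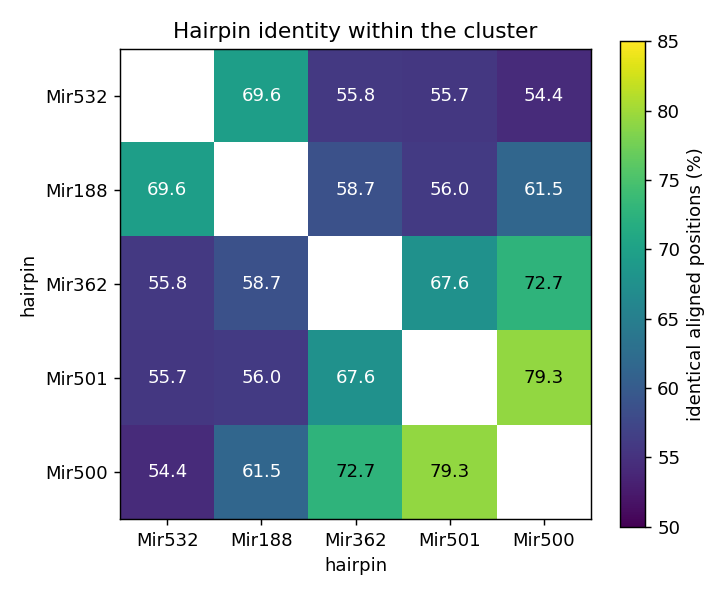
Percent of identical aligned positions for each pair of hairpins, with the genes in the direction of transcription on both axes. Mir362, Mir501 and Mir500 form 1 block of 67.6% to 79.3%, and Mir532 with Mir188 another at 69.6%.

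Despite this likeness, exact stretches common to 2 genes were short. Set against 2201 other microRNA hairpins of GENCODE M21, the longest run shared by Mir501 or Mir500 was 14 bases, with each other, and the longest run of Mir532, Mir188 and Mir362 with any hairpin was 12, 11 and 11 bases. No member shared a stretch of 20 bases, and none has a microRNA gene annotated antisense to it. Reads with more than 1 mapping place stand in a row of their own in the tables and enter no gene. Matches of the arms elsewhere in the genome were not tested.

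In the mouse assembly mm10 the cluster lies on the minus strand of chromosome X, from 7237683 to 7248497, a span of 10815 bases. Mir532 (chrX:7248402-7248497) comes first in the direction of transcription, followed after 345 bases by Mir188 (chrX:7247989-7248056). A gap of 5942 bases separates Mir188 from Mir362 (chrX:7241982-7242046). Mir501 (chrX:7241243-7241351) begins 630 bases after Mir362, and Mir500 (chrX:7237683-7237774) a further 3468 bases on. All 5 hairpins sit in 1 intron of 103648 bases (chrX:7213011-7316658). That intron is the third of transcript Clcn5-202 and the second of Clcn5-203, both coding, and the third of the non-coding Clcn5-204. The other 2 of the 5 annotated transcripts, Clcn5-201 and Clcn5-205, start downstream of the whole cluster and do not contain it. From the start of Clcn5-202 to the hairpins lie 70736 bases for Mir532 and 81459 for Mir500. The tables hold microRNA genes only, so the level of the host transcripts was not measured.

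The libraries held 4525636 counts on microRNA genes in replicate 1 and 3604284 in replicate 2. Of all reads, 27.2% in replicate 1 and 23.7% in replicate 2 had more than 1 mapping place. Levels are CPM, counts on the gene's own strand per 1000000 such counts, not divided by length because a read is a whole small RNA. The limb label was checked on marker genes: Mir196b of the HoxA cluster stood at 86831 CPM, the cartilage gene Mir140 at 23899 and the ectoderm gene Mir205 at 7403, and the red blood cell gene Mir451a at 174 CPM. The 4 neural genes of the list, the Mir124a genes and Mir9-2, were at 0 in both libraries, but each shares a stretch of 20 bases with another hairpin, so that its reads may have no single place and the 0 says nothing about neural RNA. Reads of the 5p and 3p arms of a hairpin were counted together.

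All 5 members reached 10 CPM in each library, the level taken here as detected, and so did 286 genes in all. Together they held 0.572% of the counts in replicate 1 (95% Clopper-Pearson interval 0.565 to 0.579) and 0.544% in replicate 2 (0.537 to 0.552), or 0.558% ± 0.0197 (SD, n = 2). Intervals cover only counting error within a library. They also take reads as independent, which reads copied by PCR are not. In the column taken as the opposite strand the members had 0 counts in both libraries, which allows up to 0.663 CPM in replicate 1 and 0.832 in replicate 2. The strand of the unnamed columns was itself assigned partly from where the members' counts lie, so this 0 is no separate result.

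Mir532, first in the transcript, was the most abundant member. It gave 12341 counts (2727 CPM) in replicate 1 and 9539 counts (2647 CPM) in replicate 2, or 2687 ± 56.8 CPM (SD, n = 2). The libraries differed by 2.11% of the mean as a coefficient of variation, and Mir532 ranked 62nd of the 1973 genes in each. It made up 47.7% of the cluster's counts in replicate 1 and 48.6% in replicate 2.

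Mir188, 345 bases downstream, followed with 8131 counts (1797 CPM) in replicate 1 and 4873 (1352 CPM) in replicate 2, a mean of 1574 ± 314 CPM. Replicate 1 was the higher library, and the part of Mir188 in the cluster was 31.4% there against 24.8% in replicate 2. The 2 upstream genes together made up 79.1% and 73.5% of the cluster's counts.

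Of the downstream genes, Mir501 stood highest, with 3570 counts (789 CPM) in replicate 1 and 3965 (1100 CPM) in replicate 2, a mean of 944 ± 220 CPM. Here replicate 2 was the higher library, opposite to Mir188. Its part in the cluster was 13.8% in replicate 1 and 20.2% in replicate 2.

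Mir500, last in the transcript and the hairpin most like Mir501, gave 1010 counts (223 CPM) and 794 counts (220 CPM), or 222 ± 2.04 CPM. Of the 5 members it varied least between the libraries. Mir362 was lowest, with 842 counts (186 CPM) in replicate 1 and 446 (124 CPM) in replicate 2, a mean of 155 ± 44.1 CPM. It varied most, with a coefficient of variation of 28.4%.

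**Figure D2:**
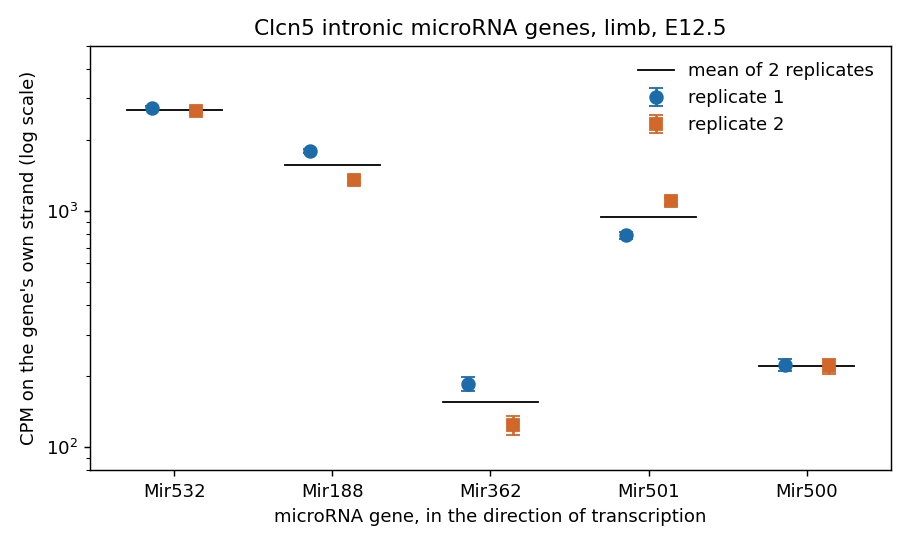
CPM on a log scale for each member in the direction of transcription, with circles for replicate 1, squares for replicate 2, bars for 95% counting intervals and a line at the mean. Mir532 and Mir500 overlap between libraries, while Mir188, Mir362 and Mir501 lie apart by more than their intervals.

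The order Mir532, Mir188, Mir501, Mir500, Mir362 was the same in both libraries for all 10 pairs, and no values overlapped between any 2 members. With 2 against 2 values an exact permutation test cannot go below p = 0.333 (two-sided), so the order was read against the spread of the ratios. A step was taken as larger than the spread when the mean log2 ratio exceeded 2 SD over the replicates, and 8 of the 10 pairs met this. Among the 4 steps between neighbours in level, those from Mir532 to Mir188 and from Mir501 to Mir500 did, and those from Mir188 to Mir501 and from Mir500 to Mir362 did not.

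Mir532 exceeded Mir188 by 1.52 times in replicate 1 (95% counting interval 1.48 to 1.56) and 1.96 times in replicate 2 (1.89 to 2.03). Over Mir500 its lead was nearly the same in both, at 12.2 times (11.5 to 13.0) and 12.01 times (11.2 to 12.9). From Mir532 to Mir362, the extremes of the cluster, the ratio was 14.7 in replicate 1 and 21.4 in replicate 2.

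Mir188 stood 2.28 times above Mir501 in replicate 1 but 1.23 times in replicate 2, a mean log2 ratio of 0.74 with an SD of 0.63. Mir500 stood 1.20 times above Mir362 in replicate 1 and 1.78 times in replicate 2, a mean of 0.55 with an SD of 0.40 on the log2 scale. Both of these orders held in each library, but on the log2 scale the ratios moved between libraries by more than their mean.

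Level did not fall steadily along the intron. Across the shortest gap, from Mir532 to Mir188, the level dropped by the ratio given above, and from Mir188 to Mir362 it was lower 9.66-fold in replicate 1 and 10.9-fold in replicate 2. Mir501, 630 bases further, then exceeded Mir362 by 4.24 times in the first library and 8.89 times in the second. Mir500 was lower than Mir501 again, by 3.53 and 4.99 times, although the 2 hairpins are the most alike of the cluster and share the 3p seed. Likeness of sequence and likeness of level thus did not go together for this pair.

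**Figure D3:**
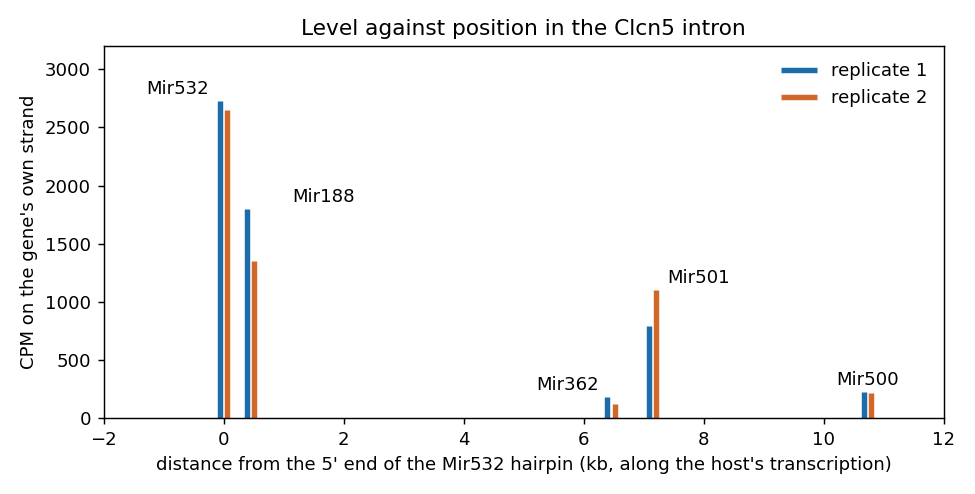
CPM of each member against the distance of its hairpin from that of Mir532 along the host's transcription (kb), with 1 line per library. The levels are high at Mir532 and Mir188, lowest at Mir362, higher at Mir501 and low again at Mir500.

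Of the members, 3 differed between the libraries by more than counting error, in both directions. A two-sided exact binomial test of the counts, adjusted by Benjamini-Hochberg over the 436 genes whose summed count reached 10, called 3 of the 5 members at 0.05, beside a background of 41.7% of all genes tested. The test compares 2 libraries, with no contrast of conditions. Each log2 ratio below sets replicate 2 over replicate 1 and has a counting SE. Mir188 had -0.41 (SE 0.0261, adjusted p = 1.64e-55, exact binomial) and Mir362 had -0.59 (SE 0.0845, adjusted p = 8.64e-12), so 2 members were higher in replicate 1, where the background is 21.3%. Mir501 had 0.48 (SE 0.0333, adjusted p = 3.91e-46, exact binomial) and was the 1 member higher in replicate 2, where the background is 20.4%. With 5 members these counts show nothing particular to the cluster.

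Mir532 had a log2 ratio of -0.04 (SE 0.0197, adjusted p = 0.0656, exact binomial) and Mir500 of -0.02 (SE 0.0684, adjusted p = 0.864), both short of the threshold. The call of Mir532 depended on the setting, with adjusted p from 0.00314 to 0.302 over 5 alternatives of this test. An exact negative binomial test in edgeR, which takes its dispersion from the same libraries (a biological coefficient of variation of 16.4%), called 0 of the 436 genes (0%). Unadjusted, 25 genes fell under 0.05 there, none of them a member. Mir362 had the smallest unadjusted p of the members there, 0.101. With 2 libraries in 1 group the dispersion of this test holds the very differences under test, so its lack of calls decides nothing.

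Among the 189 genes at 100 CPM or more, the median size of the log2 ratio was 0.18, and the members had a median of 0.41. A larger difference between libraries than that of Mir362 was seen in 16 of these genes, than that of Mir501 in 28 and than that of Mir188 in 34. Mir532 and Mir500 were among the steadier genes, with a larger difference in 162 and 180 of the 189. The summed level of the cluster had a log2 ratio of -0.07. From replicate 1 to replicate 2 Mir188 fell from 1797 to 1352 CPM and Mir362 from 186 to 124 CPM. Mir501 rose from 789 to 1100 CPM, which offset these falls only in part. Mir532, with 47.7% and 48.6% of the cluster's counts in replicates 1 and 2, changed little. The cause of these differences was not tested, and the labels give only the pool size as differing between the replicates.

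**Figure D4:**
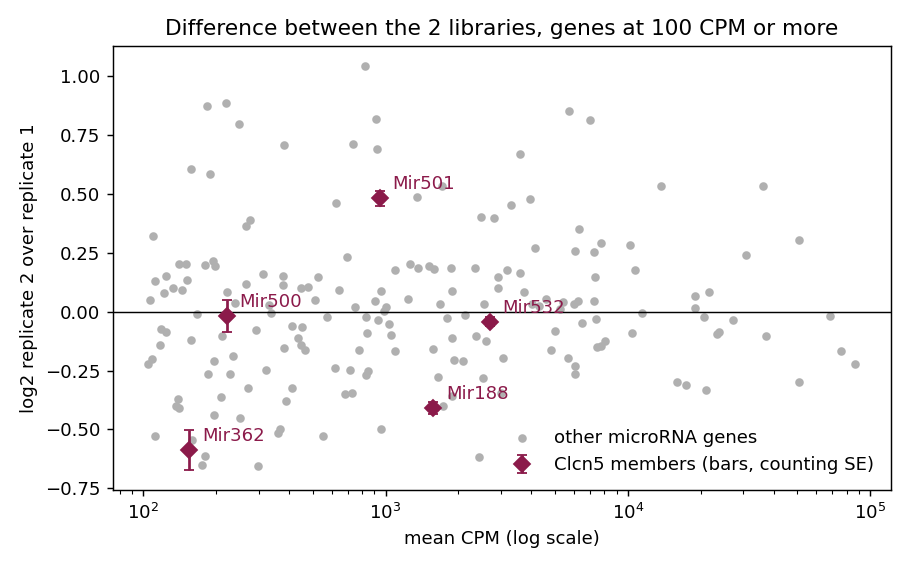
Log2 ratio of replicate 2 over replicate 1 against mean CPM (log scale) for the 189 genes at 100 CPM or more, in grey, with the members in colour and bars for the counting SE. Mir501 lies above 0 at 0.48, Mir188 and Mir362 lie below it at -0.41 and -0.59, and Mir532 and Mir500 lie near it.

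Set beside other protein-coding hosts, Clcn5 had rank 4 of 10 in the spread of level among its intronic microRNA genes. In 10 protein-coding hosts 2 or more microRNA genes lay in an intron and were detected in both libraries. The highest gene exceeded the lowest by 17.3 times in Clcn5, from the mean levels, and by a median of 4.57 times in the other 9 hosts. This ratio tends to rise with the number of genes in a host. Clcn5 has 5 genes, and only 3 of the 10 hosts, Clcn5 included, have 3 or more, so the sets are unlike in size. Nfyc (Mir30e over Mir30c-1, 319 times), Sfmbt2 (51 times) and 2610318N02Rik (Mir130b over Mir301b, 46.4 times) were wider, and Nanos3 was narrowest, with Mir181c and Mir181d at 1.00 times. Mir30c-1 and the lowest and highest genes of Sfmbt2 share a stretch of 20 bases with another hairpin, so their levels are uncertain. Without such genes 5 hosts were left, 1 was wider than Clcn5, and the median of the others rose to 8.20 times. At 100 CPM or more in both libraries 8 hosts were left, again 1 was wider, and the median of the others was 4.13 times. With every host counted, non-coding ones and exons included, 14 of 27 others were wider, and the median of the others was 19.3 times.

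**Figure D5:**
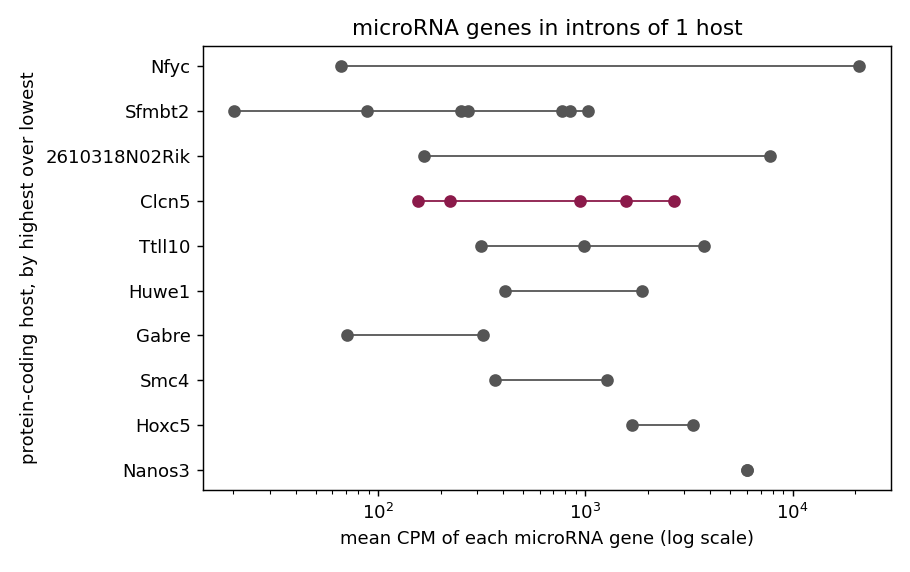
Mean CPM (log scale) of each detected microRNA gene in an intron of a protein-coding host, 1 row per host, ordered by highest over lowest. Clcn5, in colour, spans 17.3 times with 5 genes and has rank 4 of 10.

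Neighbours in the Clcn5 intron also moved apart between the libraries. For genes next to each other in a host, the log2 ratios between libraries differed by a median of 0.43 over the 4 neighbour pairs of Clcn5, from 0.18 for Mir188 and Mir362 to 1.07 for Mir362 and Mir501. In the 15 pairs of the other hosts the median was 0.15, and 1 pair, Mir15b and Mir16-2 in Smc4 at 0.70, lay above the Clcn5 median. The ranges overlapped, since 6 of these 15 pairs lay at or above the lowest Clcn5 pair. Mir16-2 shares a stretch with another hairpin, and so do Mir30c-1, the lowest and highest genes of Sfmbt2 and further genes among the other pairs. Without such genes only 5 of the 10 hosts, Clcn5 included, kept 2 or more genes, so much of this comparison rests on uncertain levels. These pairs have genes and libraries in common and are given as a description.

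The cluster of Mcm7, a subunit of the replicative helicase, offers a closer comparison, with Mir106b, Mir93 and Mir25 on 1 transcript. Mir93 stood at 16019 ± 2327 CPM, Mir106b at 10448 ± 458 and Mir25 at 829 ± 109 (SD, n = 2). Highest over lowest was 19.5 in replicate 1 and 19.1 in replicate 2, against 14.7 and 21.4 in Clcn5. The log2 ratios between libraries spanned 0.21 in the 3 Mcm7 genes and 1.07 in the 5 Clcn5 genes. Such a range also tends to rise with the number of genes. Over the 7 detected genes of Sfmbt2, some of uncertain level, it was 0.40. Mir93 and Mir25 overlap an annotated exon of Mcm7, which kept this host out of the intronic count above.

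Few genes elsewhere carry a member's seed. Among 1738 mature sequences of the RefSeq table, the seed of miR-362-3p recurred in miR-329-3p of chromosome 12 and that of miR-188-5p in miR-7061-3p, and the other 5 seeds of the 9 arms recurred there in no gene outside the cluster. The seed of miR-532-5p was not searched, and the table is not complete.
mmu-miR-329-3p: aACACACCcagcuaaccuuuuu
Mir329 stood at 107 CPM in replicate 1 and 117 in replicate 2, and Mir362 at 186 and 124, so that Mir362 was the higher gene in replicate 1. In replicate 2 the value of Mir329 lay within the 95% counting interval of Mir362 (113 to 136 CPM), and the order was not resolved. Reads of the 3p arm alone were not counted apart, and Mir7061 has no row.

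By mean level the nearest genes were Mir361 above Mir532 and Mir503 below it, both also X-linked, Mir200c and Mir107 around Mir188, Mir1193 and Mir135b around Mir501, Mir187 and Mir330 around Mir500, and Mir128-1 and Mir137 around Mir362. Each of these 10 overlapped its member in the values of the 2 libraries, so none of these orders was resolved. Such overlap follows largely from the choice of the nearest means and says nothing particular about the members. Mir361, which lies in Chm, stood at 2414 CPM in replicate 1 and 3178 in replicate 2, on both sides of Mir532.

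Among X-linked microRNA genes, which held 10.8% of the counts in replicate 1 and 11.1% in replicate 2, the 5 members made up 5.32% and 4.90%. Of the members, 3 lay above the median of all detected genes, 269 CPM, and Mir500 and Mir362 lay below it. The other 20 X-linked genes at 100 CPM or more had a median log2 ratio between libraries of 0.13, with 7 of 20 higher in replicate 1. The 164 autosomal genes at that level had a median of -0.01. A difference between X-linked and autosomal genes was not tested.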

How the data were processed

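For each library the authors deposited 1 table of raw counts per microRNA gene, made from reads placed on mm10 and counted over GENCODE M4, per the file headers in the README of each library. The aligner, counting program, versions and trimming were not given in the sources used here. Each table has 3 count columns without names. The first equalled the sum of the other 2 in all 1973 gene rows. The second, used here, was taken as the gene's own strand because it holds all counts of the members and most of all gene counts. Totals leave out the 4 rows without a gene (unmapped reads were 23.8% and 32.6% of all reads in replicates 1 and 2).

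Identifiers were matched without version to GENCODE M21 (GRCm38, the same assembly as mm10), with 1894 matches. The members and gene lists were chosen with earlier results of these data known. Named genes were the 5 members, the genes next above and below each in mean CPM, genes elsewhere with a member's seed, the Mcm7 cluster and the widest and narrowest hosts. The test between libraries used SciPy 1.17.1 with expected shares from the gene totals and Benjamini-Hochberg adjustment across all genes with 10 counts or more, adding 0.5 counts to log2 ratios. It was checked on simulated Poisson counts without added spread between libraries, so the check does not cover the spread seen here. The negative binomial test used edgeR 4.0.16 with trimmed-mean (TMM) scaling and an intercept-only dispersion. Size factors came from DESeq2 1.42.0. Hairpins were aligned globally with Biopython 1.88 (match 1, mismatch -1, gap open -2, gap extension -0.5, end gaps free) and folded with RNAfold 2.7.2. Alternatives were other denominators and scalings, both strands, other count and detection minimums, other host definitions and each replicate left out. The labels number the libraries as biological replicates.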

Additional observations from a re-analysis of the deposited data

How the results depend on the processing

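The order of the 5 members was the same in each library alone and with both strands counted. Their summed level of 5582 CPM depended on the denominator. It was 2223 per 1000000 of all reads and 10927 per 1000000 counts without the 10 highest genes, and the share of 0.558% became 0.222% and 1.09%, because the same counts were divided by more or fewer reads. With TMM factors, DESeq2 size factors and both strands the summed level moved by less than the spread between replicates. The single levels did too, except that with both strands Mir532 moved to 2620 CPM and Mir500 to 216 CPM, each by more than its SD. Leaving out a replicate gave a share from 0.544% to 0.572% and a Clcn5 spread from 14.7 to 21.4 times. The exact binomial calls of Mir188, Mir362 and Mir501 held under the 5 alternatives of that test. Mir532 was called as well with DESeq2 size factors, a minimum of 100 counts or both strands. Under the negative binomial test in edgeR 0 members were called, since it adds the spread between the libraries to counting error. The alternative without genes that share a stretch of 20 bases was chosen after seeing the data. No member had such a stretch. With 1 group, no paired analysis of samples was possible because there is no second group to pair with. Ratios between members were taken within each library.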
